A study of Homo sapiens with 8 samples.

Results

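The transcripts described here are those of 8 genes of cellular iron and haem handling: TFRC, FTH1, FTL, IREB2, ACO1, ALAS1, HMOX1 and NCOA4. They were chosen by gene symbol alone, through the RefSeq accession of each row, and every listed accession was kept. The 8 genes had 14 accessions in the control table and 13 in the knockdown table, 13 of them in both, out of 21328, 20474 and 19334 accessions. The cells were SW480, which the series text calls breast cancer cells and which is known as an established human colorectal adenocarcinoma line. They stably expressed either a control shRNA or one that targets RBMS1, a protein that binds single-stranded nucleic acids, and RNA was taken at 0 h without agent or after 9 h of alpha-amanitin at 10 µg/mL, a toxin that blocks RNA polymerase II. The 4 groups (shControl and shRBMS1 at 0 h and at 9 h) held 2 total RNA libraries each. Of the RBMS1 clones, the series text gives 2 and the labels' protocol 1, so which clone the knockdown libraries carried was not settled.

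Each deposited value is the authors' log fold change of 9 h over 0 h, taken as log2, for 1 RefSeq transcript in cells with 1 shRNA. A value of −1 means that the level on the authors' scale was halved at 9 h, whatever happened to total RNA. How libraries were scaled is not given, so percentages of the level at 0 h below hold on that scale alone. The libraries of a group were already combined, so depth and the spread between libraries are unknown and no value below carries an error or a test. Both cell populations received alpha-amanitin, and how far it stopped transcription was not measured. No label names iron, haem or an iron chelator. The name iron-responsive therefore describes what these genes are known for and was not measured. Of 10 fixed markers of colon epithelium 8 were listed, among them EPCAM, KRT8, KRT18 and CDX2, with KRT20 and VIL1 in control cells alone. Of 4 macrophage markers 2 were listed, CD68 in both populations and CD14 in knockdown cells alone. None of 8 erythroid, 4 hepatocyte or 4 fibroblast markers was listed. A ratio of 9 h to 0 h within 1 cell population cannot show how much RBMS1 was left, so the knockdown itself was not checked.

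Animal cells balance iron largely after transcription. When iron is scarce, the iron regulatory proteins IRP1 (from ACO1) and IRP2 (from IREB2) bind a short hairpin, the iron-responsive element or IRE. Bound in the 5′UTR of ferritin mRNAs (FTH1 and FTL, the heavy and light subunits of the iron store) it blocks translation; bound in the 3′UTR of TFRC mRNA (the transferrin receptor, which takes up iron) it protects the mRNA from cleavage. NCOA4 carries ferritin to the lysosome, HMOX1 opens the haem ring and frees its iron, and ALAS1 makes the first intermediate of haem in non-erythroid cells.

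The hairpins are shown because they set apart the members whose mRNA the regulatory proteins are known to bind. They were found by a search for an unpaired C, a stem of 5 bases, the loop CAGTGN and 5 bases that can pair with the stem, G with T included, on the sense strand of GENCODE transcripts matched to the accessions. Each is printed 5′ to 3′ with 6 bases on either side of the hairpin, and the capitals mark the unpaired C and the loop.
FTH1 1: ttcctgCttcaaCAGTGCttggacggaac
FTL 1: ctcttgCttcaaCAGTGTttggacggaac
TFRC 1: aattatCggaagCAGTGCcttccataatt
TFRC 2: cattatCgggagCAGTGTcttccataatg
TFRC 3: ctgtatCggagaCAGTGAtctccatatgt
TFRC 4: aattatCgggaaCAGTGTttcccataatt
The ferritin sites lie in exons of the 5′UTR, at chr11:61967574-61967602 (FTH1, minus strand) and chr19:48965335-48965363 (FTL, plus strand) of GRCh38, with the unpaired C at base 65 and base 41 of the transcript. The 4 TFRC sites lie in the 3′UTR between bases 941 and 1457 after the stop codon, at chr3:196050979-196051007, chr3:196050575-196050603, chr3:196050510-196050538 and chr3:196050463-196050491 on the minus strand. No match was found in the transcripts of IREB2 (chr15:78437431-78501453), ACO1 (chr9:32384643-32454769), ALAS1 (chr3:52198083-52214327), HMOX1 (chr22:35381096-35394207) or NCOA4 (chr10:46005088-46030623), with gene positions from RefSeq on GRCh38.p14. Of 18130 reference transcripts of listed coding accessions, 0.0772% had a match in the 5′UTR, 0.59% in the coding sequence and 0.518% in the 3′UTR. TFRC was the gene with the most 3′UTR matches: 4 transcripts (0.0221%) had 2 or more, and the other 2, of GPI and SLC35E2A, had 2 and 3. With Watson-Crick pairs alone, 3 of the 6 member sites were found, all in TFRC. A hairpin with another loop, or with a stem that does not pair in full, would be missed. The counts are thus matches to this pattern and not a full account of the elements in these mRNAs.

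**Figure D1:**
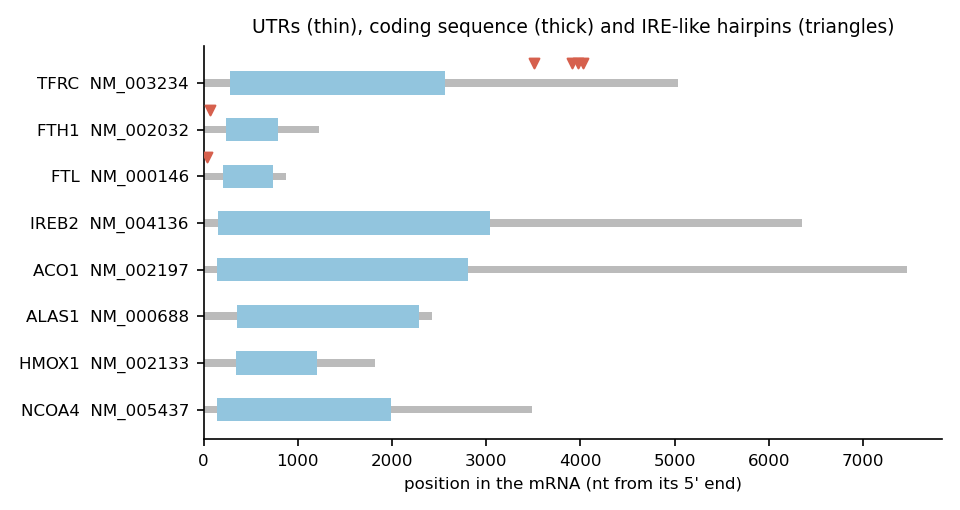
Maps of 1 reference transcript per gene, drawn to scale along the mRNA in nt from its 5′ end, with thin bars for UTRs, thick bars for the coding sequence and triangles for IRE-like hairpins. The search found 1 hairpin each near the 5′ end of FTH1 and FTL, 4 in the 3′UTR of TFRC and none in the other 5 genes.

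The first comparison asked what happened to these mRNAs in control cells after 9 h of alpha-amanitin. TFRC and FTL mRNAs were among the better kept, IREB2 and HMOX1 mRNAs were reduced, and FTH1, NCOA4 and 1 of the 2 ACO1 accessions lay nearer the middle of all transcripts. In the authors' deposited table for control cells the 14 accessions had a median of 0.10, against −0.04 for all 21328 transcripts, whose quartiles were −0.58 and 0.37. Of the 14, 2 lay at −1 or below (13.8% of all transcripts did) and none at 1 or above (8.32% did). By position, 5 lay above the upper quartile of all transcripts, 6 between the quartiles and 3 below the lower one.

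TFRC has 2 listed accessions with the same coding length and the same 4 hairpin matches. Their 5′UTRs are 283 nt (NM_003234) and 170 nt (NM_001128148), and their 3′UTRs 2466 and 2658 nt. The authors' deposited table for control cells puts NM_003234 at 0.72 and NM_001128148 at 0.43, percentiles 87.8 and 77.7 of all transcripts. On a linear scale these are 165% and 135% of the level at 0 h as the authors scaled it. Whether the total amount of TFRC mRNA rose cannot be read from them.

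The ferritin mRNAs share the hairpin and differed from each other in place. FTL in the authors' deposited table for control cells was at 0.50 (percentile 81.2) and FTH1 at 0.11 (percentile 58.5). GENCODE annotates 25 FTH1 and 16 FTL pseudogenes, near-copies that can take up reads, and how the authors' counting split such reads is not stated.

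The 2 sensors stood apart. IREB2, with 1 accession, was at −1.10 in the authors' deposited table for control cells, 46.6% of its level at 0 h and percentile 11.8. ACO1 was at 0.10 for NM_002197 and 0.74 for NM_001278352 in the same authors' deposited table, percentiles 57.8 and 88.1. Those accessions share a coding length of 2670 nt and have 3′UTRs of 4658 and 721 nt in the reference.

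Among the haem and ferritin turnover genes, HMOX1 was at −0.49 in the authors' deposited table for control cells, 71.0% of its level at 0 h and percentile 28.1. NCOA4 was at 0.20 for NM_001145263 and 0.03 for NM_005437 in the authors' deposited table. ALAS1 had 4 accessions that ran from −8.87 to 0.62 in the authors' deposited table, and is described below on its own.

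The same question in RBMS1 knockdown cells gave a similar order, with IREB2 and HMOX1 again below most transcripts and TFRC and FTL again above. In the authors' deposited table for knockdown cells the 13 accessions had a median of 0.26, against −0.03 for all 20474 transcripts. Of the 13, 1 lay at −1 or below (12.9% of all transcripts did) and 2 at 1 or above (8.65% did), namely a TFRC and an ALAS1 accession. By position, 6 lay above the upper quartile, 5 between the quartiles and 2 below the lower one.

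TFRC in the authors' deposited table for knockdown cells was at 1.03 for NM_003234 and 0.39 for NM_001128148, so NM_003234, with the longer 5′UTR and the shorter 3′UTR, was the higher one in both populations. FTL was at 0.72 and FTH1 at 0.51 in that authors' deposited table, percentiles 87.5 and 82.2. IREB2 was at −0.63 there, in the authors' deposited table, 64.4% of its level at 0 h and percentile 21.9. HMOX1 was at −0.52, ACO1 NM_002197 at 0.17, and NCOA4 at 0.74 for NM_005437 and 0.09 for NM_001145263 in the authors' deposited table. IREB2 and HMOX1 were thus the lowest of the genes other than ALAS1 in both populations.

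**Figure D2:**
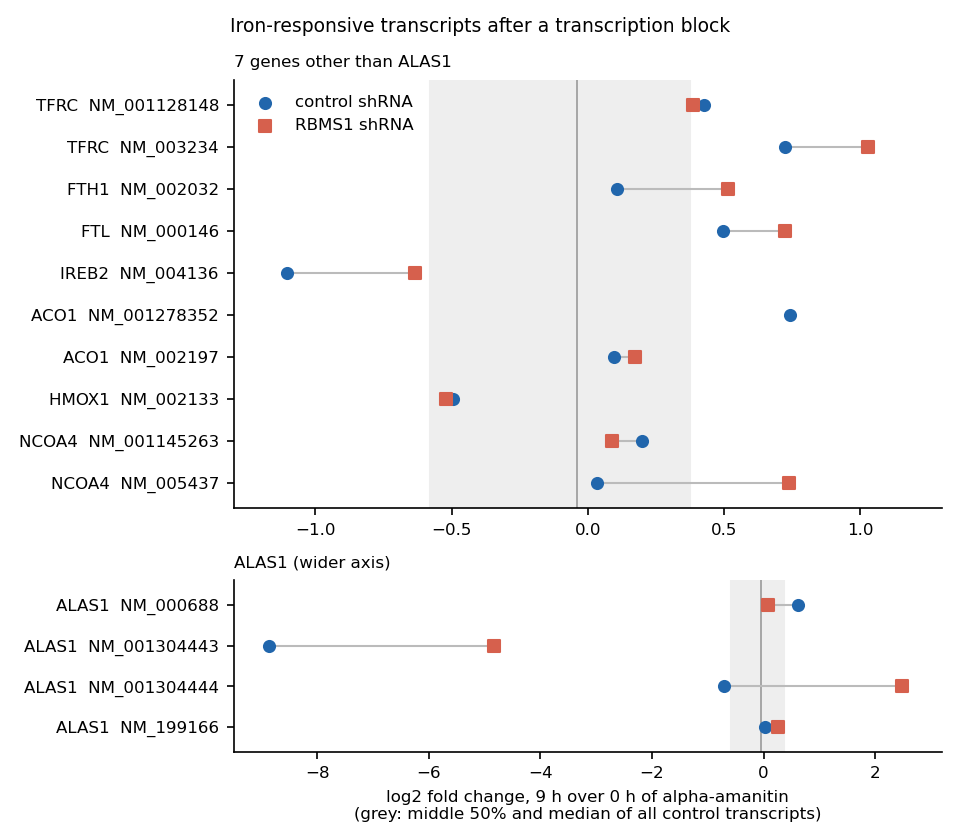
Log2 fold change of 9 h over 0 h for each accession in control cells (circles) and RBMS1 knockdown cells (squares), with ALAS1 on a wider axis and the middle 50% of all control transcripts in grey. IREB2 lies left of the grey band in both populations, both TFRC accessions lie at or right of its edge, and NM_001304443 of ALAS1 lies far left at −8.87 and −4.83; the deposited tables have no column per library, so no errors are drawn.

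As means over the accessions in both of the authors' deposited tables, the order in control cells was TFRC 0.58, FTL 0.50, NCOA4 0.12, FTH1 0.11, ACO1 0.10, HMOX1 −0.49, IREB2 −1.10 and ALAS1 −2.23. These means leave out ACO1 NM_001278352, which is in the control table alone; with it, the control mean of ACO1 over the authors' deposited table was 0.42, which places it after FTL. In knockdown cells it was FTL 0.72, TFRC 0.71, FTH1 0.51, NCOA4 0.42, ACO1 0.17, ALAS1 −0.50, HMOX1 −0.52 and IREB2 −0.63 as means over the authors' deposited tables. No genes in these orders can be told apart beyond error, neighbours or not, because the spread between libraries is unknown. Positions among all transcripts do not depend on the scale, but signs do. Set relative to the 132 listed mRNAs of 79 cytosolic ribosomal proteins, the median of all transcripts shifted to −0.45 in control and −0.42 in knockdown cells, and 10 of the 27 member values changed sign. In control cells these were FTH1, ACO1 NM_002197, ALAS1 NM_199166 and both NCOA4 accessions. In knockdown cells they were TFRC NM_001128148, ACO1 NM_002197, NCOA4 NM_001145263, and ALAS1 NM_000688 and NM_199166. IREB2 and HMOX1 kept their negative sign on that scale and FTL and TFRC NM_003234 their positive one, in both populations.

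The second comparison asked whether these mRNAs differed in stability on RBMS1 knockdown. The difference subtracts a transcript's control value from its knockdown value and is centred on the median of all 19334 shared transcripts. The largest differences were those of 2 ALAS1 accessions. The other 11 lay between −0.52 and 0.72, and HMOX1 and 1 of the TFRC accessions were close to 0. Of the 13 accessions, 2 had a centred difference of 1 or above (8.98% of all transcripts did), both of ALAS1, and none lay at −1 or below (8.65% did). The median centred difference of the 13 was 0.25. Of the 13, 9 were above 0, where the centring puts as many of all transcripts above 0 as below. The quartiles of all transcripts were −0.26 and 0.30. By position, 6 lay inside those quartiles, 6 above and 1 below.

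For the receptor, the centred difference was 0.32 for TFRC NM_003234 and −0.02 for NM_001128148, percentiles 76.2 and 47.0. For the store it was 0.43 for FTH1 and 0.24 for FTL, percentiles 80.3 and 72.0. For the sensors it was 0.49 for IREB2 (percentile 82.2) and 0.10 for ACO1 NM_002197 (percentile 60.7). IREB2 was the lower in control cells and had the larger difference of the 2 sensors. These are not separate observations, because the control value is subtracted in the difference. The percentiles are among all transcripts and not among those with a like control value.

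NCOA4, the ferritin receptor of autophagy, had a centred difference of 0.72 for NM_005437 and −0.09 for NM_001145263, percentiles 87.2 and 38.8. Those accessions share a coding length of 1845 nt and nearly the same 3′UTR, of 1504 and 1501 nt, and have 5′UTRs of 140 and 203 nt. HMOX1 had a centred difference of −0.01 (percentile 48.8). The differences of the 7 genes other than ALAS1 thus lay between percentiles 38.8 and 87.2, and none could be set against replicate error.

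**Figure D3:**
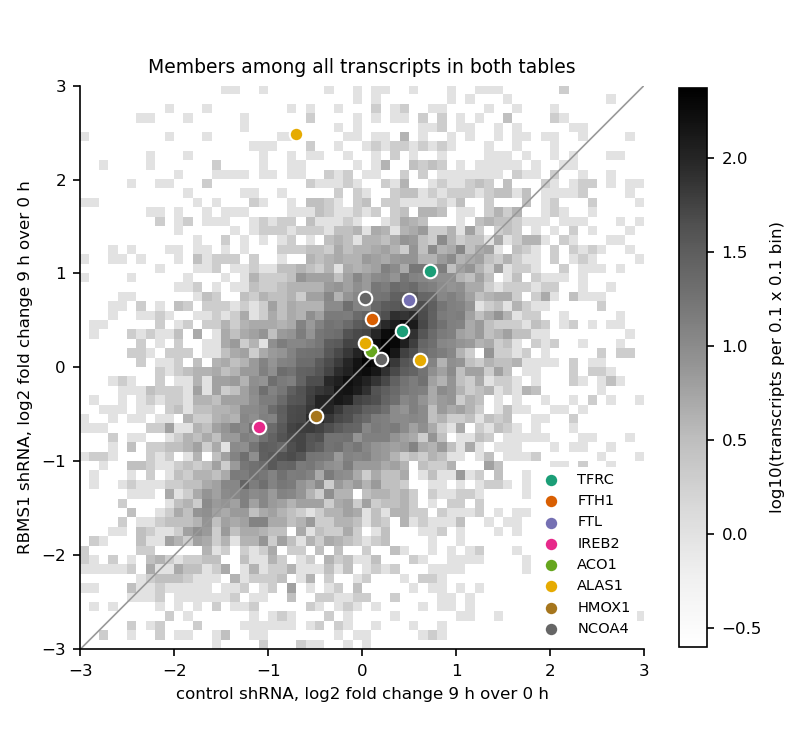
Knockdown against control log2 fold change of all transcripts in both tables within 3 on each axis (grey, log10 of the number per bin), with the accessions of the 8 genes in colour and the diagonal of equal values; 836 transcripts beyond 3, among them ALAS1 NM_001304443, are not drawn. HMOX1 lies on the diagonal, IREB2 above it at the lower left, and ALAS1 NM_001304444 stands apart at −0.71 and 2.49.

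ALAS1 was the member whose accessions went apart most. The authors' deposited tables list NM_000688 at 0.62 with the control shRNA and 0.08 on knockdown, and NM_199166 at 0.03 and 0.26. For NM_001304444 the authors' deposited tables list −0.71 and 2.49, and for NM_001304443 −8.87 and −4.83. The centred differences were −0.52, 0.25, 3.22 and 4.06 in that order, so 1 of the 4 was lower in the knockdown and 3 were higher. NM_001304444 was the 1 member accession of 13 with opposite signs in the tables, against 25.6% of all shared transcripts.

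GENCODE release 29 pairs NM_000688 and NM_001304444 with 1 transcript and NM_199166 and NM_001304443 with another, and the 2 transcripts differ in 5′UTR length (360 and 145 nt) and share a coding length of 1923 nt. The accessions within a pair are thus not separated by this reference, and the values within each pair lay further apart than those of TFRC, NCOA4 or ACO1, the other members with several accessions. Among 3977 genes with several coding accessions in both tables, the median range between accessions of a gene was 0.89 in control and 0.93 in knockdown cells. The ALAS1 range of 9.49 in control cells was reached by 1.61% of these genes and its range of 7.32 in knockdown cells by 3.77%. TFRC, with ranges of 0.30 and 0.64, and NCOA4, with 0.17 and 0.65, lay below both medians. A range can grow with the number of accessions, which was 4 for ALAS1 and 2 each for TFRC and NCOA4. The genes were not matched for that number. For the centred difference the median range was 1.07, and the ranges were 4.58 for ALAS1, a size reached by 10.6% of the genes, 0.82 for NCOA4 and 0.35 for TFRC. With no counts in the tables, accessions with few reads cannot be recognised.

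Other sequence features of the 3′UTRs were described because they are known to bear on mRNA decay: ATTTA, the core of AU-rich elements, and ATATA, a core reported for RBMS proteins, both on the sense strand with overlapping copies counted. A 3′UTR of at least 20 nt held ATTTA in 64.2% and ATATA in 52.4% of 17680 reference transcripts. TFRC had 11 ATTTA in NM_003234 and 12 in NM_001128148, 4.46 and 4.51 per kb (percentiles 87.1 and 87.4), beside its 4 hairpin matches. IREB2, with a 3′UTR of 3313 nt, had 11 ATATA and 7 ATTTA, and its 3.32 ATATA per kb was at percentile 84.8 of all transcripts. NCOA4 had 4 ATATA in either accession, 2.66 per kb. ACO1 NM_002197 had 4 ATATA and 8 ATTTA, TFRC 1 ATATA in either accession, and FTH1 1 ATTTA. FTL, HMOX1 and the ALAS1 accessions had neither. Of the 6 accessions with at least 1 ATATA, the centred differences ran from −0.09 (NCOA4 NM_001145263) to 0.72 (NCOA4 NM_005437). Those without ATATA ran from −0.52 to 4.06, both of ALAS1. Whether the motif count goes with the difference was not tested.

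The other genes of iron handling were described from 7 lists with 78 genes, of which 73 were listed. Over the lists together, 14 of 138 control values (10.1%) lay at −1 or below and 15 (10.9%) at 1 or above, and the knockdown values did so in 11.2% and 11.2%. Of 126 centred differences 13 (10.3%) lay at −1 or below and 12 (9.52%) at 1 or above, with a median of 0.02. The shares of all transcripts were 13.8% and 8.32% in control cells, 12.9% and 8.65% in knockdown cells, and 8.65% and 8.98% for the difference.

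Other genes with an mRNA known to hold an IRE had medians of −0.43 with the control shRNA and −0.27 on knockdown, over all their listed transcripts. Their centred differences had a median of 0.17, 9 of 13 were positive and 1 was at −1 or below. The list takes each gene whole, with a non-coding transcript of SLC11A2 among them. These values thus do not describe only mRNAs that hold the element. Through the centring, positive and negative differences were equally frequent among all transcripts. Matches to the search included these in the exporter gene SLC40A1 and in CDC14A:
SLC40A1 1: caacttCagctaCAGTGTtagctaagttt
CDC14A 1: tatttaCatgtaCAGTGTtacattatata
The SLC40A1 site lies in the 5′UTR and the CDC14A site in the 3′UTR. The CDC14A match was listed for NM_003672 and not for NM_033312. SLC40A1, the ferroportin gene, is at −0.96 (control) and −0.86 (knockdown) in the authors' deposited tables. SLC11A2, which encodes the iron importer DMT1, had the lowest difference of the list, −1.61 for NM_000617, from 0.29 and −1.34 in the authors' deposited tables. The authors' deposited tables also give −1.05 and −1.74 for its NM_001174128, −3.13 and −3.10 for its non-coding accession, and 1.24 for NM_001174126 in control cells alone. The highest difference was 0.45 for PFN2 NM_002628, a gene for an actin-binding protein.

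Iron chaperones, storage and sensing genes showed a median of 0.26 for the centred difference. Of 12 accessions 10 were positive, 2 of them at 1 or above, and 1 lay at −1 or below. Among all transcripts the centring makes positive and negative differences equally frequent. PCBP1 and PCBP2 are poly(C)-binding proteins that hand iron to ferritin and also bind RNA. In all 5 accessions their values were lower in control than in knockdown cells. For PCBP1 the authors' deposited tables hold −0.83 and −0.10, and for PCBP2 values from −1.27 to −0.78 with the control shRNA and from −0.07 to 0.77 on knockdown. The centred difference was 0.75 for PCBP1 and 0.85, 0.89, 1.25 and 2.07 for the PCBP2 accessions. The PCBP2 accessions share most of their sequence and are not independent. All of them are among the 10 positive accessions, so that count does not stand for 10 separate genes. FBXL5, the iron-sensing ubiquitin ligase subunit that marks IRP2 for breakdown, had the lowest difference, −2.37 for NM_001193535, and 0.18 for NM_012161.

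For genes of iron uptake, transport and export the centred difference had a median of 0.02; 3 of 25 accessions were at 1 or above and 1 was at −1 or below. The lowest was STEAP2 NM_001040665 at −7.93, of a metalloreductase, from 8.14 (control) and 0.19 (knockdown) in the authors' deposited tables. Other STEAP2 accessions had differences of −0.25, 0.47 and 1.59, and NM_001244945 is listed at 8.33 in knockdown cells alone. Without counts, whether values of such size rest on few reads cannot be told. HFE NM_001300749, of a membrane protein that binds the transferrin receptor, had a difference of 1.75. CYBRD1 NM_001127383 is listed at 1.91 and 1.56 in the authors' deposited tables, SLC39A14 NM_001135153 at 1.31 and 2.04, and FLVCR2 NM_001195283, in the knockdown table alone, at −3.57.

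Genes of haem synthesis and breakdown had a median difference of 0.00, with 1 of 17 past 1 in size on either side. Both were accessions of PPOX, a late enzyme of haem synthesis, at 4.0 for NM_000309 and −1.69 for NM_001122764. HMOX2, the constitutive counterpart of HMOX1, had 4 shared accessions with differences from −0.24 to 0.77, and the authors' deposited tables put its NM_001286267 at 2.12 (control) and 2.61 (knockdown).

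Genes of iron-sulfur cluster assembly had a median difference of −0.05, with 3 of 31 at 1 or above and 2 at −1 or below. ISCU, the assembly scaffold, had accessions on both sides, at −1.35, −0.10, 1.52 and 1.61. CIAO3 NM_022493 was lowest at −2.32 and NFU1 NM_015700 highest at 1.70. NUBP1 NM_001278506 in the authors' deposited tables was at 1.36 and BOLA3 NM_001035505 at 1.00 in knockdown cells, and MMS19 NM_001289403 at 8.30 in knockdown cells alone.

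BACH1, a haem-sensing repressor of HMOX1, and NRF2 (from NFE2L2), its activator, stood with their targets at a median difference of −0.12, with 5 of 22 at −1 or below and 2 at 1 or above. BACH1 NM_001186 was highest at 3.19, from −3.79 and −0.62 in the authors' deposited tables, while its NM_206866 had a difference of −1.11. TXNRD1 NM_182742 was lowest at −3.18, and other TXNRD1 accessions ran from −1.26 to 1.37. MAFG NM_032711 was at −1.61 and NQO1 NM_001025433 at −1.24. NFE2L2 NM_006164 has −1.06 (control) and −0.37 (knockdown) in the authors' deposited tables, KEAP1 NM_203500 at −1.08 in knockdown cells and GCLM NM_001308253 at −1.08 in control cells.

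Of the decay factors known to act on TFRC mRNA, ZC3H12A, the endonuclease Regnase-1, had a centred difference of 0.22. RC3H1, the RNA-binding protein Roquin-1, had accessions at −3.19, −2.68 and 3.35. RC3H2 was at −0.15 and 0.18, and the authors' deposited tables give 1.11 and 1.27 for its NM_018835.

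**Figure D4:**
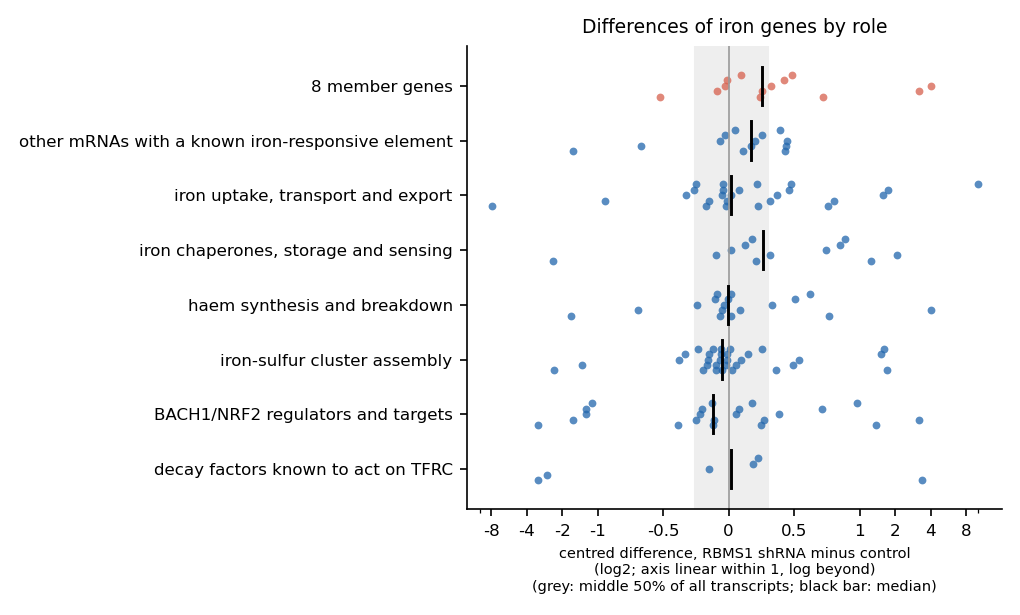
Centred difference of each shared accession, RBMS1 shRNA minus control, for the 8 member genes and the 7 other iron lists, on an axis that is linear within 1 and logarithmic beyond; grey marks the middle 50% of all transcripts and black bars the medians. The medians of the member genes (0.25) and of chaperones, storage and sensing (0.26) are the rightmost and all 8 medians lie inside the grey band.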

How the data were processed

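Total RNA was depleted of ribosomal RNA and sequenced from 8 libraries, per the labels' protocols. The submitters' processing notes name STAR 2.5, Cufflinks, Cuffdiff and the build hg38; no roles are stated. The authors deposited 2 tables, 1 per shRNA, with a log fold change per RefSeq accession, per the file headers. The values were taken as log2 because Cuffdiff, in the submitters' processing notes, writes log2, and as 9 h over 0 h because MYC, FOS and JUN, known for rapid turnover, were negative in both deposited tables. MYC, FOS and JUN were at −1.44, −1.61 and −1.01 in control cells and at −1.38, −1.24 and −0.81 in knockdown cells. How complete the block of transcription was cannot be read from these values. How libraries were scaled to each other is not given in the sources used here. These tables hold no counts, p-values or columns per library, so depth is unknown.

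Symbols came from the RefSeq gene table (GRCh38.p14) for 22132 accessions and from GENCODE release 29 for 205; 131 had none. Sequences and region lengths are those of the same release on GRCh38, which is hg38, and its accession versions may differ from those used by the authors. Values were handled with Python 3.11.15, pandas 2.3.3 and numpy 2.4.6. The difference was centred by subtracting −0.0182, and a size of 1 was counted without a test. The hairpin search and the counting were tested on simulated data. The text names all 8 genes, of each other list the accessions with the highest and lowest difference, and genes with an accession of 1 or more in size in either table or in the difference. PCBP1, SLC40A1, CDC14A, ZC3H12A, GPI and SLC35E2A are named outside that rule, after their values or sequences were seen. No gene of like pattern is named, since a transcript has at most 2 values. Some genes that the rule would name are not reported here. The genes, lists and tests were chosen with earlier results of these data known.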

Additional observations from a re-analysis of the deposited data

How the results depend on the processing

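On the scale of ribosomal protein mRNAs the members' median was −0.31 in control and −0.13 in knockdown cells. There 3 control accessions lay at −1 or below and 0 at 1 or above, and 2 knockdown accessions at −1 or below and 1 at 1 or above. Without accessions over 5 in size, which leaves out NM_001304443 of ALAS1, 1 control and 0 knockdown accessions lay at −1 or below and 1 difference at 1 or above. With a size of 0.5 counted, 3 control accessions lay below and 3 above it. In knockdown cells 3 accessions lay below and 5 above, and of the differences 1 lay below and 3 above. Shares of all transcripts were computed at a size of 1 on the deposited scale alone. The changed counts in this paragraph therefore have no share to be set beside. Counted as gene means, 0 genes lay past 1 on either side in knockdown cells and 1 difference (ALAS1) lay at 1 or above, also with means over all accessions of each table. Gene medians, chosen after seeing the data, gave 1 control gene at −1 or below, 0 knockdown genes on either side and 1 difference at 1 or above. The hairpin search with Watson-Crick pairs alone found 3 sites. Coding accessions alone, symbols from the RefSeq gene table alone and, for the difference, no centring changed no count. No paired analysis was possible because the tables carry no column per library. For the same reason no library could be left out.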

Other observations

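Transcripts were also grouped by where the hairpin search found a match, whatever the gene. The 15 accessions of 11 genes with a match in the 5′UTR, FTH1, FTL and SLC40A1 among them, had a median of −0.22 in control and 0.02 in knockdown cells over the authors' deposited tables. Their median centred difference was 0.17, with quartiles of −0.07 and 0.39. The 97 accessions of 80 genes with a match in the 3′UTR had medians of −0.11 and −0.15 over the authors' deposited tables and a median centred difference of −0.04, with quartiles of −0.20 and 0.16. For the 18968 accessions with no match the medians were −0.06 and −0.05 over the authors' deposited tables and the median centred difference was 0.00, with quartiles of −0.24 and 0.29. Several accessions of 1 gene often share the same site, and most of these matches have no known role, so the groups are a description of sequence and value side by side.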
